A study of Homo sapiens with 8 samples.

Results

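The comparison set all 6 arrays of KDR+CD31+ sorted cells against both arrays of unsorted undifferentiated cells, and so used 8 of the 8 arrays of the study. Members were chosen by sample title. The cells were H9, a widely used human embryonic stem cell line, kept on inactivated mouse fibroblast feeders. The day 0 group was undifferentiated H9 that had not passed a sorter (2 arrays). The sorted groups were H9 cells after 4, 6 or 8 days of blood-directed culture in StemPro34 serum-free medium with BMP4, each sorted for KDR and CD31 (2 arrays per day). The labels call the arrays biological replicates without naming separate cultures, so each p-value reflects only how far these 8 arrays scatter, which may be technical, and with 2 per group the precision is limited. Every sorted array was also differentiated and every day 0 array was neither, so day of culture and sorting cannot be told apart. The day 0 culture was not sorted away from its feeder layer, and a change in the share of a cell type cannot be told apart from a change in RNA per cell.

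KDR is the chief VEGF receptor of endothelium, and CD31, encoded by PECAM1, is an adhesion molecule of endothelial cell contacts. In the embryo, blood and endothelium arise in close association from mesoderm, and cells that carry both proteins include endothelium able to give rise to blood. Undifferentiated embryonic stem cells grow as an epithelium held together by E-cadherin and depend on a small network of pluripotency factors, together with FGF and activin or Nodal signals.

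Values are log2(intensity + 32) throughout unless another scale is named. A gene is said to separate the groups when its 6 sorted values all lie above, or all below, both day 0 values, and the gap is the distance between the nearest pair of arrays across the 2 groups. A gene was called at an adjusted p under 0.05 in limma (Benjamini-Hochberg over all 13647 genes tested). A difference is the mean of the 3 sorted groups minus day 0, with its standard error from the fit. Where a list is counted below on all arrays, a gene is counted as higher or lower only if it was both called and separating. List counts with arrays left out rest on the call and its direction alone, without the separation rule. They are thus not quite the same measure as the full counts beside them, and part of a shift may come from this. Counts of lists and symbol families are to be set beside the shares of all genes tested, 13.3% higher and 16.7% lower.

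The first principal component held 70.3% of the variance and placed both day 0 arrays at one end, and the second held 16.6% and placed replicate 1 of day 4 and replicate 1 of day 6 apart from the other arrays. The 3'/5' signal ratio of GAPDH, a control for RNA integrity, was 1.71 and 1.91 at day 0 and between 2.15 and 3.73 on the sorted arrays. Sorted and day 0 arrays thus did not overlap here, while the same ratio of ACTB overlapped, at 8.92 and 10.39 at day 0 and from 9.18 to 30.99 on the sorted arrays. The 2 highest ACTB ratios, 30.99 and 18.96, were those of replicate 1 of day 6 and of replicate 1 of day 4, the arrays apart on the second component. The part of these ratios in the results was not tested. The summed intensity of 10 endothelial markers was 1477 and 1478 at day 0 and between 46567 and 64228 on the sorted arrays, and that of 6 measured markers of undifferentiated cells was between 39774 and 40953 at day 0 and between 3663 and 7167 on the sorted arrays. The 10 endothelial markers include KDR and PECAM1, so part of that sum was selected by the sort. On these markers the arrays matched their labels. The summed intensity of 6 general blood markers overlapped, between 1387 and 2930 on the sorted arrays against 1969 and 2188 at day 0. Among them, PTPRC, the pan-leukocyte marker, and SPI1, a myeloid factor, lay below the array median on all 6 sorted arrays. ITGA2B, a platelet integrin, overlapped, from 7.49 to 9.72 on the sorted arrays against 7.79 on both day 0 arrays. POU5F1, RUNX1 and the fetal and alpha globin genes share their probe sets with other genes and were not analysed here.

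Promoter sequence is shown for genes with some of the widest gaps, since the genes higher in sorted cells include ETS and GATA family factors and NANOG, lower in them, is a known target of SOX and OCT factors. Each is the 250 bases before the gene's start, 5′ to 3′ on the gene's strand, from RefSeq (GRCh38.p14). Capitals mark the motif named, found on either strand.
NANOG, chr12:7789152-7789401 (+), SOX and OCT composite motif: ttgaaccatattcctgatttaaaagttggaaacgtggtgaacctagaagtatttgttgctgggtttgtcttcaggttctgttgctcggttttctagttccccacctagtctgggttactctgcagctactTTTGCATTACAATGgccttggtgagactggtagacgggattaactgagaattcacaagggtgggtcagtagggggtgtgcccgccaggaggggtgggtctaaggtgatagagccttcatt
MMRN2, chr10:86957616-86957865 (-), ETS motif: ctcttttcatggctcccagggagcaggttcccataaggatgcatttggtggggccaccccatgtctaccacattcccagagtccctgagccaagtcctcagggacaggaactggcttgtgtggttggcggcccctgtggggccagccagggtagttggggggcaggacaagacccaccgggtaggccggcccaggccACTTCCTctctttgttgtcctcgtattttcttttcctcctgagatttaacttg
LAPTM5, chr1:30757775-30758024 (-), ETS motif: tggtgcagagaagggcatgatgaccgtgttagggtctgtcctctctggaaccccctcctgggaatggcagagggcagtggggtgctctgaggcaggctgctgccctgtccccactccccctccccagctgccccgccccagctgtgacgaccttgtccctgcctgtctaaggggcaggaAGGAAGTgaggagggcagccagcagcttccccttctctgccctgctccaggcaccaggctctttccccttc
MYCT1, chr6:152697696-152697945 (+), GATA motif: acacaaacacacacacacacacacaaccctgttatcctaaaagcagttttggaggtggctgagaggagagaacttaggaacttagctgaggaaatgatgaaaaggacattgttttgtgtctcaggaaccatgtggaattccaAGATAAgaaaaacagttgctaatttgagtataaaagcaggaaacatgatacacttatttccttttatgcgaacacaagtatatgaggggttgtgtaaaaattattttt

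Of the 15 genes with the widest gaps in each direction, 10 of the higher and 8 of the lower matched the promoter table, with 17 and 13 promoters. The ETS letters AGGAAGT stood in 3 of the 17 promoters of higher genes (LAPTM5, MMRN2 and RASGRP3) and in 7.01% of all 35116 promoters. The GATA letters AGATAA stood in 5 of the 17 promoters of higher genes (ERG, MYCT1, RASGRP3 and TAL1), in 2 of the 13 of lower genes (CFAP95 and MAP7) and in 9.17% of all. The letters searched for the SOX and OCT composite motif were those of the printed NANOG site, read on the other strand with a base left free. They stood in 2 of the 35116 promoters in all (0.0057%), the NANOG promoter included. The NANOG match thus follows from the letters searched, and the low share says nothing about lower genes as a group. Both strands were searched and the 3 motifs did not overlap in the promoters printed. A match is a description of the letters and not of a bound site.

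Of 13647 genes tested, 6413 (47.0%) had no overlap between the sorted and the day 0 arrays, 3034 with every sorted array higher (22.2%) and 3379 with every sorted array lower (24.8%). In all 4125 genes were called (30.2%). Of those tested, 1815 (13.3%) were both separating higher and called, and 2279 (16.7%) were separating lower and called. Of these, 899 (6.59% of all tested) were higher and 1149 (8.42%) lower by at least 1. In 509 genes (3.73%) the gap exceeded 1 in favour of the sorted arrays and in 594 (4.35%) in favour of day 0, it exceeded 2 in 174 (1.28%) and 191 (1.40%), and it exceeded 3 in 73 (0.535%) and 65 (0.476%). Of all called genes, 31 did not separate the groups, and 2319 genes that separated them were not called. The median gap was 0.58 among the higher and -0.57 among the lower genes. The median range over the 6 sorted arrays was 0.67 and 0.64 in these genes, and that over the 2 day 0 arrays 0.088 and 0.084. The gap was wider than the range of the sorted arrays in 809 of the higher genes (44.6%) and 1025 of the lower (45.0%).

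**Figure D1:**
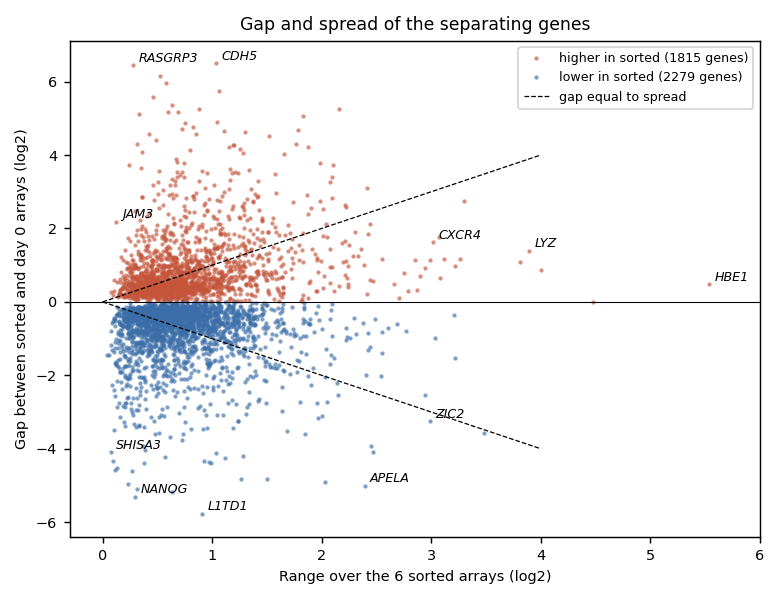
Each point is a gene that was called and separated the groups (1815 higher, 2279 lower); the horizontal axis is its range over the 6 sorted arrays and the vertical axis the gap between the nearest sorted and day 0 arrays, both in log2(intensity + 32), and dashed lines mark a gap equal to the range. CDH5 and RASGRP3 stand at the top, L1TD1 and NANOG at the bottom, and HBE1 separates the groups by 0.48 with the widest range of those labelled.

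Dropping a day 0 array cost more calls than dropping any sorted array. The day 0 mean then rested on 1 array, and day 0 no longer entered the estimate of spread. Over all genes tested, the median range was 0.077 over the 2 day 0 arrays and 0.64 over the 6 sorted arrays. A range over more arrays and more days tends to be wider, so these are not like measures, here or above. A call lost only without a day 0 array cannot tell an unsteady gene from lost precision, and the part of each was not tested. Without replicate 1 of day 0, 618 genes were called higher and 899 lower, and without replicate 2, 625 and 914. Where counts below are given without either day 0 array, each was left out in turn. Of the 1815 and 2279 genes, 565 and 834 kept their call without each of the 8 arrays in turn. When both arrays that stood apart, replicate 1 of day 4 and replicate 1 of day 6, were left out, 2896 genes were called and separating higher and 4133 lower. Many of the genes lay near the floor of the array in one group, with 294 of the 1815 higher genes under the median of the array on each day 0 array and 278 of the 2279 lower genes under it on all 6 sorted arrays. Their differences depend on the offset of 32.

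The widest gap belonged to CDH5, the cadherin of endothelial junctions. Its values were 5.73 and 5.69 at day 0, and over the sorted arrays the lowest, median and highest were 12.23, 13.05 and 13.26. The difference was 7.12 ± 0.33 (SE; limma adjusted p = 1.45e-05). RASGRP3, an activator of Ras and Rap downstream of diacylglycerol, was at 6.28 and 6.24 at day 0 and at 12.73, 12.82 and 13.01 over the sorted arrays. MMRN2, a matrix glycoprotein of endothelium, was at 5.72 and 5.77 at day 0 and at 11.94, 12.18 and 12.46 over the sorted arrays. Their gaps were 6.45 for RASGRP3 and 6.17 for MMRN2. CD93, a receptor of endothelial and progenitor cells, was higher by 6.86 ± 0.56 (limma adjusted p = 0.00021) but varied more, from 11.55 to 13.71 against 5.84 and 6.30 at day 0. SHE and ECSCR, the latter an endothelial surface protein, had gaps of 5.16 and 4.88, and MYCT1 had a gap of 5.18. PECAM1 and KDR were selected by the sort, so their differences of 6.53 and 4.57 are no finding. The same holds where they are counted in the gene lists below.

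**Figure D2:**
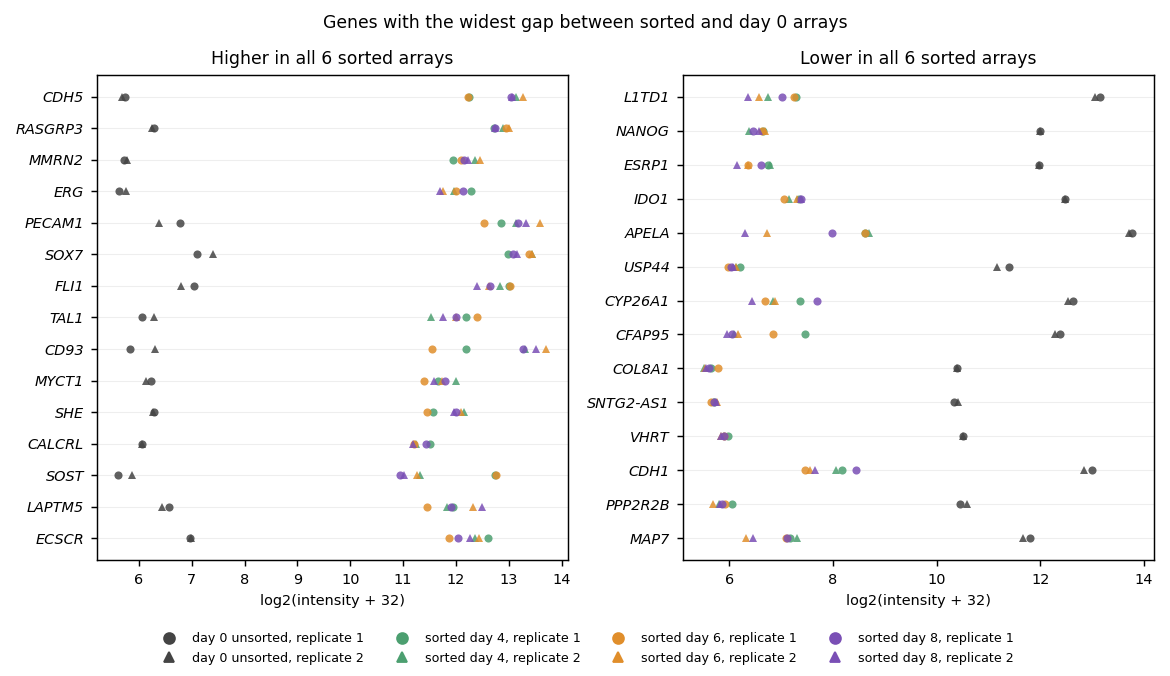
Values by array of the genes with the widest gaps in each direction, 15 higher (left) and 14 of 15 lower (right), as log2(intensity + 32); each point is an array, with colour for day and shape for replicate. The day 0 points of CDH5 lie at 5.73 and 5.69 and its sorted points from 12.23 to 13.26, and those of NANOG at 11.99 and 12.00 and from 6.39 to 6.68.

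Some genes had nearly the same level on every sorted array. Among genes that differed by at least 2, the smallest ranges were those of JAM3, a junctional adhesion molecule, at 13.00, 13.06 and 13.12 over the sorted arrays against 10.77 and 10.82 at day 0. TEK, the angiopoietin receptor, was at 12.88, 12.96 and 13.12 against 9.15 and 9.01. CALCRL, the receptor of adrenomedullin, was at 11.18, 11.22 and 11.52 against 6.06 and 6.05. ARHGAP31, ARAP3 and TLNRD1 belonged to the same set, with differences of 2.66, 2.17 and 2.42. Among lower genes with the smallest ranges, SHISA3, which restrains WNT and FGF receptors, was at 9.87 and 9.64 at day 0 and at 5.47, 5.51 and 5.54 over the sorted arrays. KCNG3, a potassium channel subunit, was at 9.98 ± 0.02 (SD, n = 2) at day 0 and at 5.53, 5.58 and 5.62 over the sorted arrays. CHRDL1, an antagonist of BMP ligands, was lower by 2.68 ± 0.08 (limma adjusted p = 2.06e-06). The sorted values of SHISA3, KCNG3 and CHRDL1 all lay at or under 6.25, below the array median on all 6 sorted arrays. Near the floor the offset narrows differences, so these small ranges cannot tell a steady level from background signal.

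**Figure D3:**
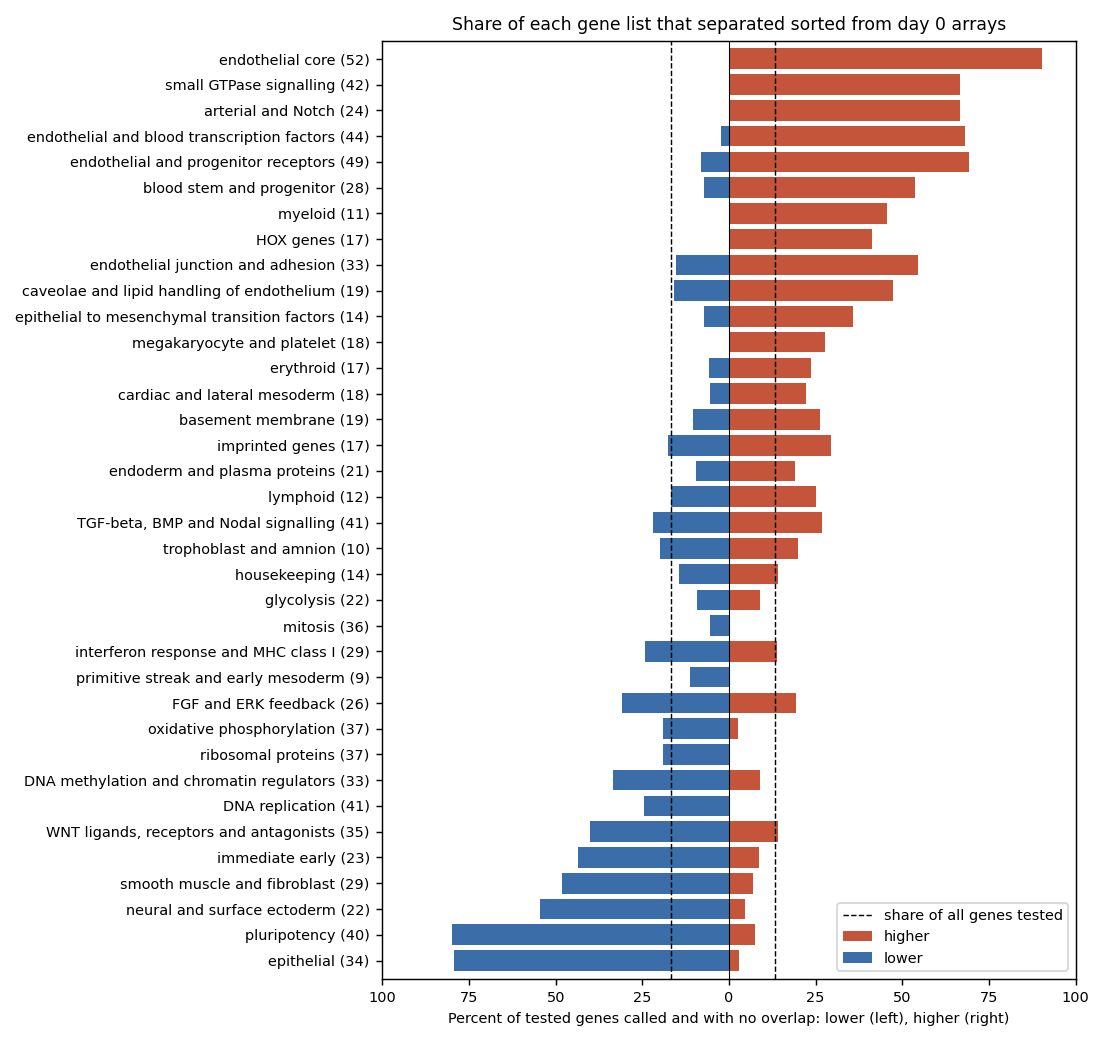
Bars give, for each of 36 gene lists (number of tested genes in parentheses), the percent of tested genes that were called and separated the groups, higher to the right and lower to the left; dashed lines give the shares of all 13647 genes, 13.3% higher and 16.7% lower. Endothelial genes (47 of 52 higher), pluripotency genes (32 of 40 lower) and epithelial genes (27 of 34 lower) reach farthest.

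Of 52 endothelial genes tested, 47 were higher, 0 were lower and 3 overlapped between groups, with a median difference of 3.83 against -0.01 over all genes. Of these 47, 39 kept their call without each array in turn. CLEC14A and SOX18, an endothelial lectin and a SOX factor, lay above day 0 on all 6 sorted arrays without a call. CLEC14A was at 6.77 and 6.70 at day 0 and between 7.12 and 9.09 on the sorted arrays (limma adjusted p = 0.0845), and SOX18 at 5.94 and 5.90 and between 6.38 and 9.05 (adjusted p = 0.0759). JAM2, a junctional adhesion molecule related to JAM3, was called lower by 0.85, with replicate 1 of day 4 at 9.04 above both day 0 values of 8.91 and 9.0.

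Transcription factors of endothelium and blood were higher in 30 of 44 and lower in 1, with a median of 1.79. ERG, an ETS factor that maintains endothelial identity, was at 5.63 and 5.75 at day 0 and at 11.70, 11.98 and 12.28 over the sorted arrays, a difference of 6.28 ± 0.18 (limma adjusted p = 2.12e-06). FLI1, its close relative, went from 7.04 and 6.79 to 12.39, 12.74 and 13.02. SOX7, a SOX factor of early endothelium, was at 7.09 and 7.39 and then at 12.98, 13.27 and 13.44. TAL1, required for blood formation, was at 6.06 and 6.28 and then at 11.53, 12.00 and 12.40. LMO2, which forms a complex with TAL1, was at 7.13 and 7.35 and then at 11.92, 12.48 and 12.77. None of these 5 factors lost its call in any of the alternatives tried. KLF4, a zinc-finger factor active in both endothelium and pluripotent cells, was the 1 lower member, at 11.13 and 11.04 at day 0 and at 8.32, 9.11 and 10.61 on the sorted arrays. It lost its call in 4 of 19 alternatives, and without either day 0 array the count of lower members was 0.

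Receptors of endothelium and progenitors were higher in 34 of 49 and lower in 4, with a median of 2.03. Without replicate 1 of day 0 these counts were 25 and 1, and without replicate 2 they were 26 and 1. APLNR, the apelin receptor, was at 7.51 on both day 0 arrays and at 12.28, 12.95 and 13.11 over the sorted arrays, a difference of 5.33 ± 0.16 (limma adjusted p = 2.19e-06). APELA, which encodes a ligand of APLNR, went the other way, from 13.77 and 13.71 at day 0 to 6.31, 8.29 and 8.70 over the sorted arrays. PTPRB, a phosphatase that restrains TEK, was higher by 5.39 ± 0.36, and F2RL2, a thrombin receptor, by 4.37 ± 0.13. The 4 lower receptors were FGFR2, FGFR3, FGFR1 and PDGFRB. FGFR3 was at 11.97 and 11.83 at day 0 and at 9.49, 9.89 and 10.53 over the sorted arrays. FGFR2 was lower by 2.82 and PDGFRB by 0.87, both calls lost without either day 0 array, and 1 of the 10 other FGFR2 probe sets separated the groups the opposite way.

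Junction and adhesion genes split. Of 33, 18 were higher and 5 lower (13 and 2 without either day 0 array). ICAM2, a leukocyte adhesion ligand of endothelium, was at 7.77 and 7.24 at day 0 and at 12.48, 12.97 and 13.21 over the sorted arrays. PCDH17, a protocadherin, was higher by 4.82 ± 0.18. OCLN, the tight junction protein occludin, was lower, at 10.63 and 10.59 and then at 7.98, 8.59 and 8.94. VCAM1, an adhesion molecule induced on inflamed endothelium, was also lower, at 7.06 and 7.13 and then at 5.96, 6.04 and 6.23, all near the floor. ITGA6, AMOTL2 and PODXL were lower by 2.17, 1.12 and 1.00, and each lost its call without a day 0 array. PODXL, a sialomucin of both endothelium and pluripotent cells, stayed bright, from 12.45 to 13.34 on the sorted arrays against 13.94 and 13.75.

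Small GTPase genes, which control cell shape and adhesion, were higher in 28 of 42 and lower in 0, with a median of 1.33 (18 higher without either day 0 array). RHOJ, known from endothelium, was at 6.57 and 6.78 at day 0 and at 10.93, 11.41 and 11.73 over the sorted arrays. VAV3, an exchange factor, was at 9.08 and 9.02 and then at 12.37, 12.58 and 13.04. RASIP1, a Rap and Ras effector needed for vessel lumens, was higher by 3.55 ± 0.22 (limma adjusted p = 6.22e-05), and ARHGDIB, abundant in blood cells, by 3.93 ± 0.22.

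**Figure D4:**
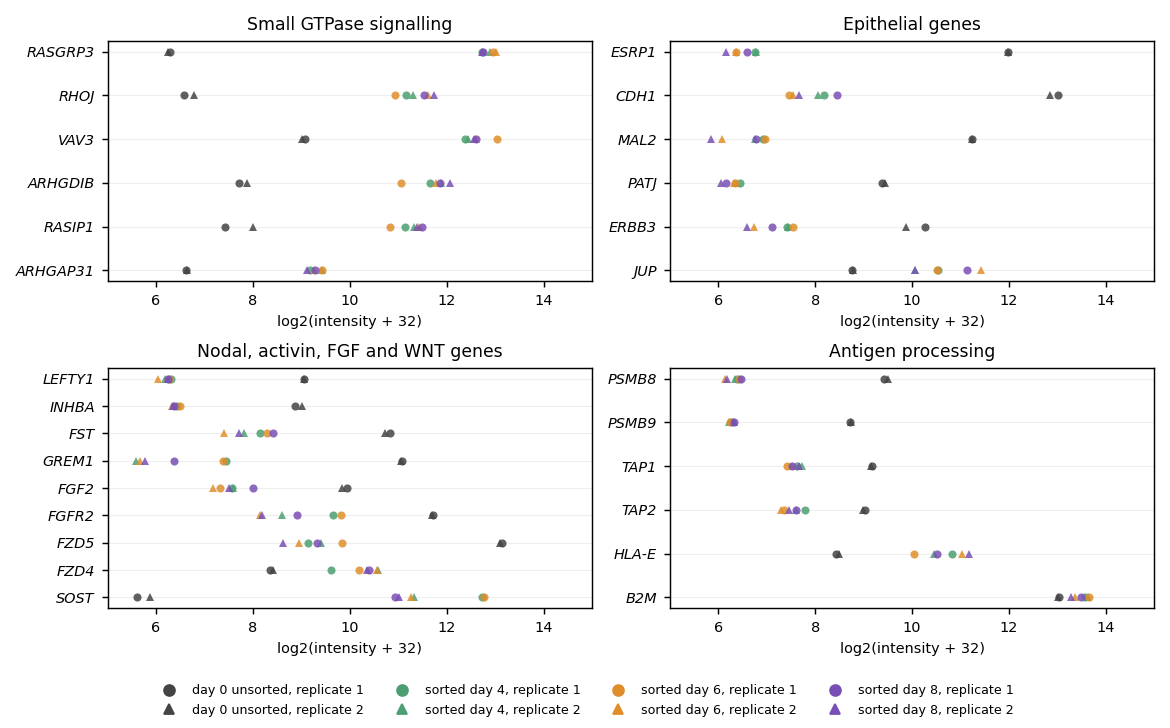
Values by array for members of 4 groups of genes named in the text, as log2(intensity + 32); each point is an array, with colour for day and shape for replicate. Small GTPase genes lie higher and epithelial genes other than JUP lower on all 6 sorted arrays, and PSMB8, PSMB9, TAP1 and TAP2 lie lower while HLA-E and B2M lie higher.

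Arterial and Notch genes were higher in 16 of 24 and lower in 0, with a median of 2.32, and 9 were called without either day 0 array. SOX17, an arterial and endoderm factor, was at 6.37 and 6.49 at day 0 and at 10.01, 10.51 and 11.25 over the sorted arrays. HEY1, a Notch target, was at 9.39 and 9.48 and then at 12.34, 13.19 and 13.76. ACVRL1, a BMP9 receptor of endothelium, was higher by 3.98 ± 0.28, and the gap junction genes GJA5 and GJA4 by 4.43 ± 0.64 and 4.28 ± 0.56. JAG1, a Notch ligand, overlapped between the groups, at 11.35 and 11.11 at day 0 and between 9.59 and 11.32 on the sorted arrays. Of 19 genes of caveolae and endothelial lipid handling, 9 were higher and 3 lower, and without either day 0 array 4 were called higher. LPL, which releases fatty acids from lipoproteins, was higher by 4.86 ± 0.32, and PLVAP, which forms the diaphragms of fenestrae, by 4.72 ± 0.58. CAV1, the main caveolar protein, overlapped between the groups, from 10.88 to 12.04 against 11.87 and 11.82.

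Among 28 genes of blood stem and progenitor cells, 15 were higher and 2 lower, with a median of 0.85. MECOM, a factor of blood stem cells, was at 7.48 and 7.70 at day 0 and at 10.95, 12.52 and 13.03 over the sorted arrays. LAPTM5, a lysosomal protein of blood cells, was at 6.57 and 6.43 and then at 11.45, 11.93 and 12.50. PROM1, which encodes CD133 and is also found on stem cell epithelium, was lower, at 11.28 and 11.11 and then at 6.75, 7.33 and 8.05. MYB, a factor of definitive blood progenitors, overlapped, with replicate 1 of day 4 and of day 6 at 8.84 and 8.89 against 8.89 and 9.03 at day 0 and the remaining sorted arrays from 9.93 to 10.62. SPN, which encodes the leukocyte marker CD43, stayed between 6.82 and 7.04 on the sorted arrays against 6.92 and 6.91.

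Of 11 myeloid genes 5 were higher and 0 lower (3 without replicate 1 of day 0). MRC1, the mannose receptor of macrophages and some endothelium, was at 5.59 and 5.90 at day 0 and at 10.13, 11.03 and 12.00 over the sorted arrays. CSF2RB, a receptor chain shared by blood growth factors, was higher by 3.40 ± 0.20. Of 18 megakaryocyte and platelet genes 5 were higher and 0 lower, or 9 without replicate 1 of day 6 and 8 without replicate 2 of day 8. They included MMRN1, a platelet and endothelial glycoprotein, higher by 4.15 ± 0.47, and VWF, a clotting factor of the same cell types, higher by 3.25 ± 0.33. Of 17 erythroid genes 4 were higher and 1 lower, or 2 higher without either day 0 array and 9 without replicate 1 of day 6. RHAG, a red cell membrane protein, was at 5.69 and 5.64 and then at 8.42, 10.02 and 10.41. KLF1, the erythroid master factor, was higher by 1.10 ± 0.15. Of 12 lymphoid genes 3 were higher and 2 lower (1 higher without replicate 1 of day 0). The lower share of the lymphoid list was close to the 16.7% of all genes. GATA3, a factor of T cells and other lineages, was higher by 2.16 ± 0.17, and LCK, a T cell kinase, was lower by 2.54 ± 0.10.

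The 6 sorted arrays were not alike in every gene. HBE1, the embryonic beta-like globin, separated the groups by only 0.48, with replicates 1 and 2 of day 4 at 7.68 and 8.03, of day 6 at 7.59 and 11.97, and of day 8 at 13.13 and 12.66, against 7.11 and 6.84 at day 0. Its call was lost in 10 of 19 alternatives. HBZ, the embryonic alpha-like globin, overlapped and ranged from 6.22 to 9.77 against 6.24 and 6.05. PF4, a platelet chemokine, overlapped and ranged from 7.30 to 12.84 against 7.25 and 7.50. LYZ, lysozyme, was at 11.22 on replicate 1 of day 8, while the remaining sorted arrays lay from 7.32 to 7.99, against 5.92 and 5.76, and lost its call in 12 of the 18 alternatives that tested it. CXCR4, a chemokine receptor of endoderm, arterial and blood cells, was between 10.58 and 13.60 on the sorted arrays against 8.96 and 8.83. Replicate 1 of day 4 and of day 6 had its lowest values, and the call was lost in 3 of 19 alternatives, among them those without a day 0 array.

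Plasma protein genes of endoderm and yolk sac mostly overlapped. Of 21 endoderm genes tested 4 were higher and 2 lower, while 6 were called higher whether separating or not. By the call alone, 11 were higher without replicate 1 of day 4 and 7 without replicate 1 of day 6 (2 without either day 0 array). AFP, alpha-fetoprotein, was at 8.20 and 8.37 at day 0, and on the sorted arrays it was lowest on replicate 1 of day 6 at 7.57 and highest on replicate 1 of day 8 at 13.12. APOA2, an apolipoprotein, was at 8.32 on both day 0 arrays, at 7.14 on replicate 1 of day 6 and at 13.21 on replicate 2 of day 4. AHSG, fetuin, separated the groups by less than 0.01 and ranged from 6.28 to 10.76. The summed intensity of 6 markers of endoderm and yolk sac was between 587 and 22664 on the sorted arrays against 941 and 973 at day 0. The part of such cells in the other results was not tested.

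**Figure D5:**
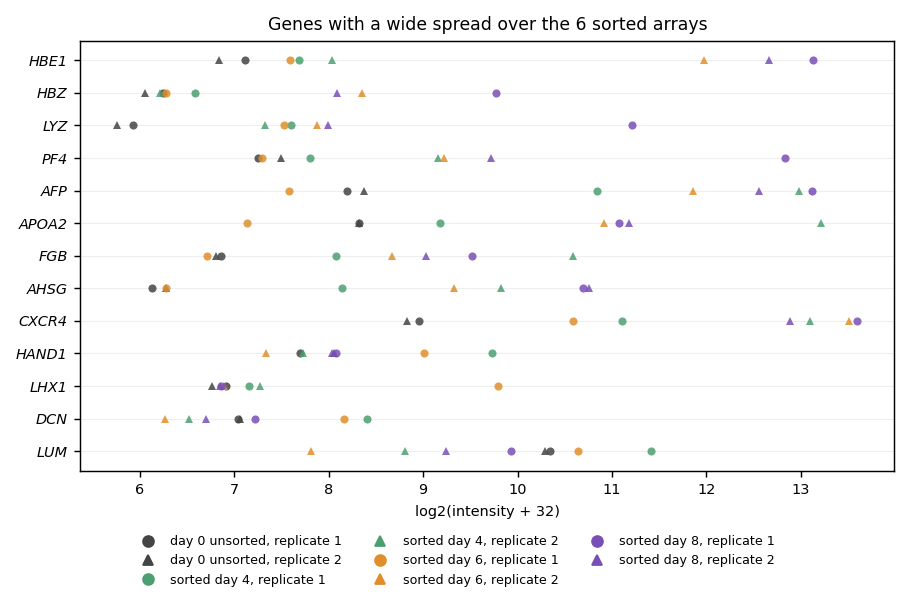
Values by array, as log2(intensity + 32), for 13 genes of the blood, endoderm, mesoderm and fibroblast lists with a wide spread over the 6 sorted arrays, chosen after their values were seen; each point is an array, with colour for day and shape for replicate. HBE1 runs from 7.59 to 13.13 and AFP from 7.57 to 13.12 over the sorted arrays, and in AFP, APOA2 and FGB replicate 1 of day 6 lies below both day 0 arrays.

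No gene was called among the sorted days by the F test in the same limma fit, and 618 genes had an unadjusted p under 0.05 (4.53% of those tested). Of the 1815 higher genes 121 had such a p (6.67%), and of the 2279 lower genes 197 (8.64%). Both tests share 1 estimate of the spread, so choosing called genes can by itself favour a small p among days. These shares therefore do not show that separating genes differ more among days than others. Without replicate 1 of day 6, HBE1 and ALAS2, whose product opens haem synthesis in the red cell lineage, were called. Without replicate 2 of day 6, HBE1, ALAS2, HBD and LHX1 were called. Set against day 0 on its own, each of the 3 days called 889 of the higher and 1198 of the lower genes, while 175 and 192 were called on no single day. The sorted array nearest to day 0 was most often replicate 1 of day 6 among higher genes (464, 25.6%) and replicate 1 of day 4 among lower genes (863, 37.9%). Replicate 2 of day 6 was nearest least often among higher genes (143, 7.88%) and replicate 2 of day 8 among lower genes (113, 4.96%).

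Pluripotency genes were lower in 32 of 40 and higher in 3, with a median of -1.87, and 26 of the 32 kept their call without each array in turn. NANOG, a core pluripotency factor, was at 11.99 and 12.00 at day 0 and at 6.39, 6.60 and 6.68 over the sorted arrays, a difference of -5.43 ± 0.12 (limma adjusted p = 8.56e-07). L1TD1, an RNA-binding protein of embryonic stem cells, had the widest gap of any lower gene, from 13.15 and 13.06 to 6.37, 6.88 and 7.28. USP44, a deubiquitinase, was at 11.39 and 11.17 and then at 5.97, 6.10 and 6.20. CYP26A1, which degrades retinoic acid, was at 12.64 and 12.53 and then at 6.43, 6.86 and 7.69. All sorted values of NANOG and USP44 lay between 5.97 and 6.68. PTPRZ1, a receptor phosphatase, varied more, from 5.84 to 8.29 on the sorted arrays against 12.30 and 12.22. The 3 higher members were NR5A2, ETV5 and GDF3, by 1.89, 0.82 and 0.88, and each lost its call in at least 1 alternative, with 1 of them called without replicate 1 of day 0 and 0 without replicate 2.

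Epithelial genes moved the same way. Of 34, 27 were lower and 1 higher, with a median of -1.64, and 20 of the 27 kept their call without each array in turn. CDH1, E-cadherin, was at 13.00 and 12.84 at day 0 and at 7.46, 7.86 and 8.45 over the sorted arrays, a difference of -5.03 ± 0.22 (limma adjusted p = 1.08e-05). ESRP1, which sets epithelial splicing, was at 11.97 and 11.98 and then at 6.16, 6.49 and 6.79. MAL2, a protein of apical transport, was at 11.24 and 11.23 and then at 5.85, 6.76 and 6.97, and PATJ, a polarity scaffold, at 9.37 and 9.45 and then at 6.05, 6.33 and 6.44. MAP7, a microtubule-binding protein of epithelia, was lower by 4.82 ± 0.25. The 1 higher member was JUP, plakoglobin, which links both E-cadherin and VE-cadherin to the cytoskeleton, at 8.75 and 8.78 and then at 10.06, 10.52 and 11.42. Its call was lost without either day 0 array. Of 14 factors of epithelial to mesenchymal transition 5 were higher and 1 lower (3 higher without replicate 2 of day 0). ZEB2 and ZEB1, repressors of E-cadherin, were higher by 2.85 ± 0.17 and 2.00 ± 0.13, and MSN, moesin, by 1.57 ± 0.21. VIM, vimentin, was bright throughout and higher by 0.38, but by -0.14 when all its probe sets were averaged, so it has no settled direction. TWIST2 was lower by 1.07. CDH2, N-cadherin, overlapped, from 9.92 to 10.84 against 11.05 and 10.81.

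Of 22 genes of neural and surface ectoderm 12 were lower and 1 higher, and 8 lower without either day 0 array. OTX2, a homeobox factor of the epiblast and forebrain, was at 12.77 and 12.67 at day 0 and at 6.11, 7.36 and 8.58 over the sorted arrays. ZIC2 was at 12.56 and 12.40 and ranged from 6.16 to 9.15. TFAP2A and TFAP2C, factors of surface ectoderm and trophoblast, were lower by 2.88 ± 0.21 and 3.08 ± 0.25. SOX1 and PAX6, factors of committed neural cells, overlapped between the groups, at 6.71 to 7.11 and at 6.86 to 8.02 on the sorted arrays. ZNF521, a zinc-finger factor also found in blood progenitors, was the 1 higher member, by 2.19 ± 0.21. Of 9 primitive streak genes only EOMES was called and separating, lower by 1.87 ± 0.12. TBXT, brachyury, overlapped, at 7.97 and 7.92 and between 7.65 and 7.99.

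Of 18 cardiac and lateral mesoderm genes 4 were higher and 1 lower (2 higher without either day 0 array). MEF2C, a factor of heart and endothelium, was at 7.57 and 7.54 at day 0 and at 12.14, 12.41 and 12.56 over the sorted arrays. GATA6 was higher by 2.40 ± 0.30. ACTC1, cardiac actin, was lower by 2.74 ± 0.53, a call lost without either day 0 array. HAND1, a factor of lateral mesoderm, overlapped, and its 2 highest values, 9.73 and 9.01, were those of replicate 1 at day 4 and at day 6. The summed intensity of 3 measured cardiac markers was between 340 and 576 on the sorted arrays against 399 and 422.

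HOX genes were higher in 7 of 17 and lower in 0 (4 without replicate 1 of day 0). HOX genes set position along the body axis, and the 7 were HOXD8 and 6 genes of the HOXB cluster. Counted by symbol, 7 of 11 tested HOXB genes and antisense transcripts were higher, the highest share among 176 symbol families with at least 10 tested genes. HOXB6 was at 6.24 and 6.27 at day 0 and at 8.77, 9.44 and 10.19 over the sorted arrays. HOXB7 was higher by 3.09 ± 0.31 and HOXB3 by 2.16 ± 0.26. Next came symbols beginning with KLF, mostly zinc-finger factors, with 7 of 15 higher and 4 lower, and tetraspanins, with 9 of 20 higher and 1 lower. KLF2, a flow-responsive factor of endothelium, was higher by 2.58 ± 0.28 and KLF3 by 2.39 ± 0.20, opposite to KLF4. TSPAN18 was higher by 3.09 ± 0.36. The highest shares of lower genes, against 16.7% of all genes, were in the EXOSC family, subunits of the RNA exosome (5 of 10), PARP (5 of 12) and collagens (13 of 32). EXOSC7 and EXOSC3 were lower by 1.45 ± 0.16 and 1.56 ± 0.20, and PARP1 by 1.04 ± 0.16. Other members lost their calls more often. PARP2 lost its call in 9 of 19 alternatives, PARP12 in 5 of 19 and PARP9 in 5 of 18, and EXOSC2 and EXOSC5 each in 2 of 19.

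WNT pathway genes were lower in 14 of 35 and higher in 5 (6 and 3 without either day 0 array), and both directions were found among receptors. FZD5 was at 13.14 and 13.10 at day 0 and at 8.61, 9.23 and 9.85 over the sorted arrays, and FZD7 was lower by 2.76 ± 0.43. FZD4, the receptor through which norrin acts on retinal vessels, was higher, at 8.36 and 8.42 and then at 9.62, 10.37 and 10.57. Among secreted antagonists, SOST, sclerostin, was at 5.61 and 5.87 at day 0 and at 10.94, 11.29 and 12.76 over the sorted arrays, with replicate 1 of day 4 and of day 6 the highest. DKK3 was lower by 2.03 ± 0.21, and WIF1 was lower by 2.10 ± 0.09. SFRP2 differed by -4.21 ± 0.81, a call lost without either day 0 array.

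Among 41 genes of TGF-beta, BMP and Nodal signalling 11 were higher and 9 lower (5 higher without either day 0 array). Ligands and antagonists were found in both directions. LEFTY1, a Nodal antagonist and target, was at 9.05 and 9.06 at day 0 and at 6.05, 6.25 and 6.30 over the sorted arrays. INHBA, the activin A subunit, was at 8.87 and 9.02 and then at 6.33, 6.37 and 6.50. FST, follistatin, was lower by 2.81 ± 0.29, and the BMP antagonist GREM1 was lower by 4.69 ± 0.58, with replicate 1 of day 4 and of day 6 at 7.44 and 7.38 and replicate 2 of day 4 at 5.59. Among higher members were the receptor genes TGFBR3, by 3.71 ± 0.30, and TGFBR2, by 1.96 ± 0.29, beside ACVRL1 above. GDF3, a ligand related to Nodal, was also higher, by 0.88 with a gap of 0.21. Its call was lost in 8 of 19 alternatives. BMPER, an extracellular modulator of BMPs in vessels, was higher by 2.79 ± 0.34.

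FGF and ERK feedback genes were lower in 8 of 26 and higher in 5 (3 lower without either day 0 array). FGF2, which stem cell culture depends on, was at 9.95 and 9.85 at day 0 and at 7.17, 7.53 and 8.00 over the sorted arrays, and FGF4 was lower by 1.89 ± 0.11. Feedback inhibitors were higher, with DUSP5, a phosphatase of ERK, at 8.86 and 8.83 and then at 10.63, 10.83 and 11.91. SPRY1, a Sprouty inhibitor, was higher by 1.48 ± 0.22.

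Smooth muscle and fibroblast genes were lower in 14 of 29 and higher in 2, with a median of -0.86, or 6 and 0 without either day 0 array. The summed intensity of 8 such markers was 36715 and 36494 at day 0 and between 11150 and 24340 on the sorted arrays. COL12A1, a collagen of connective tissue, was at 10.30 and 10.37 and then at 5.80, 6.14 and 6.52, and LOX, which cross-links collagen, was lower by 3.04 ± 0.47. LGALS1, galectin-1, was lower by 2.27 ± 0.15. COL1A1 and TAGLN were lower by 3.20 and 3.57, and both calls were lost without either day 0 array. COL3A1, SPARC, DCN and LUM overlapped, and LUM, lumican, was highest on replicate 1 of day 4 at 11.41 and lowest on replicate 2 of day 6 at 7.81. The lines were kept on mouse feeder cells, and the part of such cells in these values was not tested. Of 19 basement membrane genes 5 were higher and 2 lower, or 3 higher without either day 0 array and 9 without replicate 1 of day 6. COL15A1, a collagen of vessel walls, was at 5.83 and 5.92 and then at 8.55, 9.58 and 10.76, and NID1 and NID2, the nidogens, were higher by 2.47 ± 0.28 and 2.49 ± 0.34. LAMA2 was lower by 1.08 ± 0.12.

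Of 29 genes of interferon response and MHC class I 7 were lower and 4 higher, and all 7 lower calls held without each array in turn (2 higher without either day 0 array). The immunoproteasome subunits PSMB8 and PSMB9 were at 9.42 and 9.51 and at 8.72 and 8.74 at day 0, and they had sorted medians of 6.37 and 6.28. The peptide transporter genes TAP1 and TAP2 were lower by 1.58 ± 0.11 and 1.49 ± 0.11. HLA-E, a class I molecule, was higher, at 8.43 and 8.49 and then at 10.03, 10.67 and 11.17. B2M, the shared light chain of class I molecules, was higher by 0.48 ± 0.12, a call lost in 4 of 19 alternatives. IDO1, which degrades tryptophan and is induced by interferon, was outside this list and among the widest gaps, at 12.47 on both day 0 arrays and at 7.06, 7.33 and 7.38 over the sorted arrays. IFIT3 was higher by 2.38 ± 0.30, so interferon-induced genes went both ways.

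Of 23 immediate early genes 10 were lower and 2 higher, and 6 were lower without either day 0 array. CCN2, a matrix protein induced by mechanical and TGF-beta signals, was at 11.50 and 11.35 at day 0 and at 7.22, 7.61 and 8.26 over the sorted arrays. ATF3, a stress-induced factor, was lower by 2.79 ± 0.27. JUND was higher by 1.18 ± 0.16. Of 33 genes of DNA methylation and chromatin 11 were lower and 3 higher, or 7 and 0 without replicate 2 of day 0. DNMT3B, a de novo methyltransferase of the early embryo, was at 13.72 and 13.61 and then at 11.07, 11.28 and 11.64. TET1, which oxidises methylated cytosine, was lower by 2.48 ± 0.23, and PHC1, a Polycomb subunit, by 2.05 ± 0.14. Of 17 imprinted genes 5 were higher and 3 lower (3 higher without either day 0 array, 1 lower without replicate 1 of day 0 and 5 lower without replicate 1 of day 6). The lower share of the imprinted list was close to the 16.7% of all genes. PLAGL1, a zinc-finger factor, was higher by 3.61 ± 0.23, and PEG10 was lower by 2.57 ± 0.38.

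Counts in growth and metabolism lists moved strongly with the arrays used, and so did the counts over all genes tested. Of 36 mitosis genes 2 were lower and 0 higher, though the list's median was -0.62, and 35 were called lower once the pair of arrays that stood apart was left out (replicate 1 of day 4 and replicate 1 of day 6). Leaving out single arrays gave 12 without replicate 1 of day 6, 4 without replicate 2 of day 6, and 0 without either day 0 array or replicate 2 of day 8. The 2 lower genes were BUB1 and BUB1B, spindle checkpoint kinases, and BUB1 was at 11.16 and 11.09 at day 0 and between 8.58 and 10.47 on the sorted arrays. DNA replication genes were lower in 10 of 41 and higher in 0, with a median of -0.69 and with 36 called lower without those same 2 arrays. Single arrays moved that count from 1 without replicate 1 of day 0 and 2 without replicate 2 of day 0 or of day 8, through 4 without replicate 1 of day 8, to 16 without replicate 1 of day 4 and 18 with replicate 1 of day 6 dropped instead. GINS4, a subunit of the replicative helicase, was lower by 1.92 ± 0.17 and kept its call in every alternative tried. Of 37 ribosomal protein genes 7 were lower and 0 higher, and of 37 oxidative phosphorylation genes 7 were lower and 1 higher, both close to the 16.7% of all genes and both at 0 lower without either day 0 array. Without replicate 2 of day 8 these counts were 4 and 3, and without the pair of arrays that stood apart 20 ribosomal protein and 19 oxidative phosphorylation genes were called lower. In glycolysis 2 of 22 were higher and 2 lower, with 0 called lower without either day 0 array, 5 without replicate 1 of day 4 and 9 without the pair that stood apart. SLC2A3, a glucose transporter, was higher by 0.88 ± 0.10.

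Long noncoding RNAs numbered 724 among the genes tested, of which 59 were higher (8.15%, against 13.3% of all genes), 78 lower (10.8%, against 16.7%) and 488 overlapped (67.4%, against 53.0%). SNTG2-AS1, an antisense transcript whose counting by strand was not checked, was at 10.34 and 10.41 at day 0 and at 5.64, 5.70 and 5.76 over the sorted arrays. VHRT was at 10.51 and 10.50 and then at 5.85, 5.90 and 5.97. Among the remaining genes with the widest gaps, CFAP95, a cilia-associated protein, was lower by 5.90 ± 0.35, and PPP2R2B, a phosphatase subunit, was lower by 4.67 ± 0.11. COL8A1 was lower by 4.80 ± 0.09 on the probe set used, but 1 of its 2 other probe sets separated the groups the opposite way. MIR302B also stood among them, and its value is not given because the probe set was not matched to the mature microRNA.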

How the data were processed

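RNA of 8 samples, 2 per group, was measured on Affymetrix expression arrays. The authors deposited 1 linear intensity per probe set and array, made with MAS5 per the submitters' processing notes, with version and scaling not given in the sources used here. Array medians lay between 88.7 and 93.2, and no scaling was added. The deposited intensities were transformed here to log2 values after adding 32. This offset understates the change of dim genes.

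Of 54675 probe sets, 41091 had 1 gene symbol in the platform annotation, 1801 several, 11721 none and 62 were controls. Per gene the brightest probe set was used, and a gene was tested if it exceeded the median of the array on 2 or more arrays (13647 of 19775). Of 1078 list genes 847 were tested, 122 were dim and 109 had no probe set of their own.

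All 8 arrays entered 1 fit with a term per group (limma 3.58.1, R 4.3.3, eBayes with trend), two-sided, with Benjamini-Hochberg adjustment. The members, the 36 gene lists and the rules were chosen with earlier results of these data known, and lists share genes. Genes named by rule were the 15 widest gaps and 8 smallest sorted ranges in each direction, up to 5 called and separating members per list and direction, the gate genes, and up to 4 members of the 3 leading symbol families in each direction. Overlapping genes, CLEC14A, SOX18, ALAS2, HBD and HOXD8, and the members of the plot of wide spread were chosen after their values were seen. The fit was tested on simulated data with noise drawn independently for each array. That test does not cover the deviations that same-numbered sorted arrays shared. Alternatives were other offsets, filters, normalizations, probe set rules, fits and left-out arrays. For 3 samples the source name gives day 4 where title and stage give a later day, and the title was used. Figures were drawn with matplotlib 3.10.9.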

Additional observations from a re-analysis of the deposited data

Results flagged for a closer look

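In 7 of the genes named by rule, 1 of the 6 sorted arrays lay far from the others relative to the range of the group. Chance sets apart about 1 in 20 groups, and 243 genes were named by rule. LYZ was at 11.22 on replicate 1 of day 8, and the nearest other sorted array was at 7.99. RHAG was at 8.42 on replicate 2 of day 4, with the nearest at 9.96, and CA2, carbonic anhydrase 2, was at 9.93 on replicate 2 of day 8, with the nearest at 11.45. BMPER was at 7.29 on replicate 1 of day 8, with the nearest at 8.71. On replicate 1 of day 6, VAV3 was the highest at 13.04 (nearest 12.61), while FCER1G, an Fc receptor subunit, was the lowest at 7.07 (nearest 7.52) and PARP12 the lowest at 7.39 (nearest 7.88). All 7 genes were named from those that separate the groups, so every sorted array lay on one side of both day 0 arrays by that choice.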

How the results depend on the processing

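Counts of called genes stayed within 1.5 times the reported ones under other offsets, filters, normalizations, probe set rules, eBayes without trend and a fit of 2 groups only. Leaving out 1 array at a time gave 618 to 2177 genes called higher, 899 to 2861 lower, 618 to 2143 separating higher and 899 to 2757 separating lower, lowest without a day 0 array. Among the sorted days the count was between 0 and 4, with 2 without replicate 1 of day 6 and 4 without replicate 2. With replicate 1 of both day 4 and day 6 left out, 2979 genes were called higher and 4232 lower, of which 2896 and 4133 separated the groups, and the cause was not tested. Of the 243 genes named by rule, VIM alone changed direction in these alternatives, to -0.14 with the mean of all probe sets (limma adjusted p = 0.633). With the replicate number as a block, 2099 genes were higher and 2762 lower, of which 2048 and 2632 separated the groups. The deviations of day 0 and sorted arrays of 1 number correlated at between -0.025 and 0.0237. Those of sorted arrays of different days correlated at 0.188, 0.407 and 0.6. Same-numbered arrays thus deviated together among the sorted days but not with day 0, and the numbers were not taken as pairs. The pooled fit took the sorted arrays as independent, so its standard errors and adjusted p-values may be too small. No detection calls were used, so signal near the array floor gives only a bound.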

Other observations

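Probe sets with no gene symbol in the annotation numbered 11721, and 4300 of them lay above the array median on at least 2 arrays. In 85 of these (1.98%) the gap between sorted and day 0 arrays exceeded 1 in favour of the sorted arrays, and in 108 (2.51%) in favour of day 0. The gap exceeded 3 in 6 probe sets in each direction, and the widest were 4.14 and -3.84. These transcripts stay unnamed here and belong to no count given above.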
